A study of Homo sapiens with 24 samples.

Results

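T47D is an established human breast cancer cell line of luminal type that carries the oestrogen receptor. The 6 arrays described here compare its Aldefluor+ cells with its Aldefluor- cells under DMSO, the solvent used as vehicle, and they were chosen by line, treatment and sorted fraction out of 24 arrays in all. There were 3 arrays of Aldefluor+ cells and 3 arrays of Aldefluor- cells, with 1 array of each from experiments 5, 6 and 7. All 6 came from T47D cells kept for 72 hours with DMSO, and each sample held the cells of several pooled flasks. The other arrays came from T47D cells given 5 µM of the small molecule ID8, and from the mesenchymal, triple-negative breast cancer line SUM159 under both treatments. The groups used for comparison below are T47D with ID8, Aldefluor+ and Aldefluor-, and SUM159 with DMSO, Aldefluor+ and Aldefluor-, with 3 arrays each.

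Aldehyde dehydrogenases oxidise aldehydes to carboxylic acids, and members of the ALDH1A group make retinoic acid from retinaldehyde. The Aldefluor reagent is an aldehyde that cells with high activity of these enzymes turn into a trapped fluorescent product. In breast tissue and breast tumours, cells bright in this assay have been used as a population enriched for stem or progenitor properties. DEAB inhibits the reaction, and the Aldefluor+ gate was set so that it held 0.1% of cells stained with DEAB. The sort therefore used enzyme activity and no RNA level, so no array value was used to choose the fractions. The aldehyde dehydrogenase genes encode the enzymes of the sorted activity, so their RNA levels are not unrelated to the sort.

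All values are log2 signals that the authors had already adjusted for batch. Arrays have no read depth, and precision is set by how many there are. By sign, the labelled line fitted its markers: 15 of 15 luminal marker genes were higher in T47D than in SUM159, and 13 of 13 mesenchymal markers were lower. The median T47D minus SUM159 difference was 0.67 for the luminal and -0.42 for the mesenchymal markers on the log2 scale. No experiment held both lines, so the batch adjustment may have changed these sizes, which was not tested. None of either list, the mesenchymal one included, had a mean below 2 in the T47D DMSO arrays. The 6 arrays resembled each other closely, with Pearson r across genes between 0.981 and 0.9877 and interquartile ranges of 2.17 to 2.28. One SUM159 array, of Aldefluor+ cells with DMSO from experiment 4, had a narrower range of 2.05, and counts and between-line results are also given without it.

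Of 22395 named genes, limma with the experiment as a block called 34, or 0.152%, at a Benjamini-Hochberg adjusted p under 0.05. There were 20 genes higher in Aldefluor+ cells (0.0893%) and 14 lower (0.0625%). The called genes encode secreted ligands and matrix proteins, surface receptors, transporters, metabolic enzymes and chromatin readers. Their median absolute log2 difference was 1.12 and the smallest was 0.58, whereas the median over all genes was 0.0033 with 50.6% of genes above 0. In all 34 the 3 Aldefluor+ values and the 3 Aldefluor- values did not overlap, but 19.1% of all genes (4270) also had groups that did not overlap. The call therefore rests on the size of the difference against its error, with a median SE of 0.166 among the called genes. In a bulk sample, fewer cells that make a transcript and less of it per cell cannot be told apart.

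**Figure D1:**
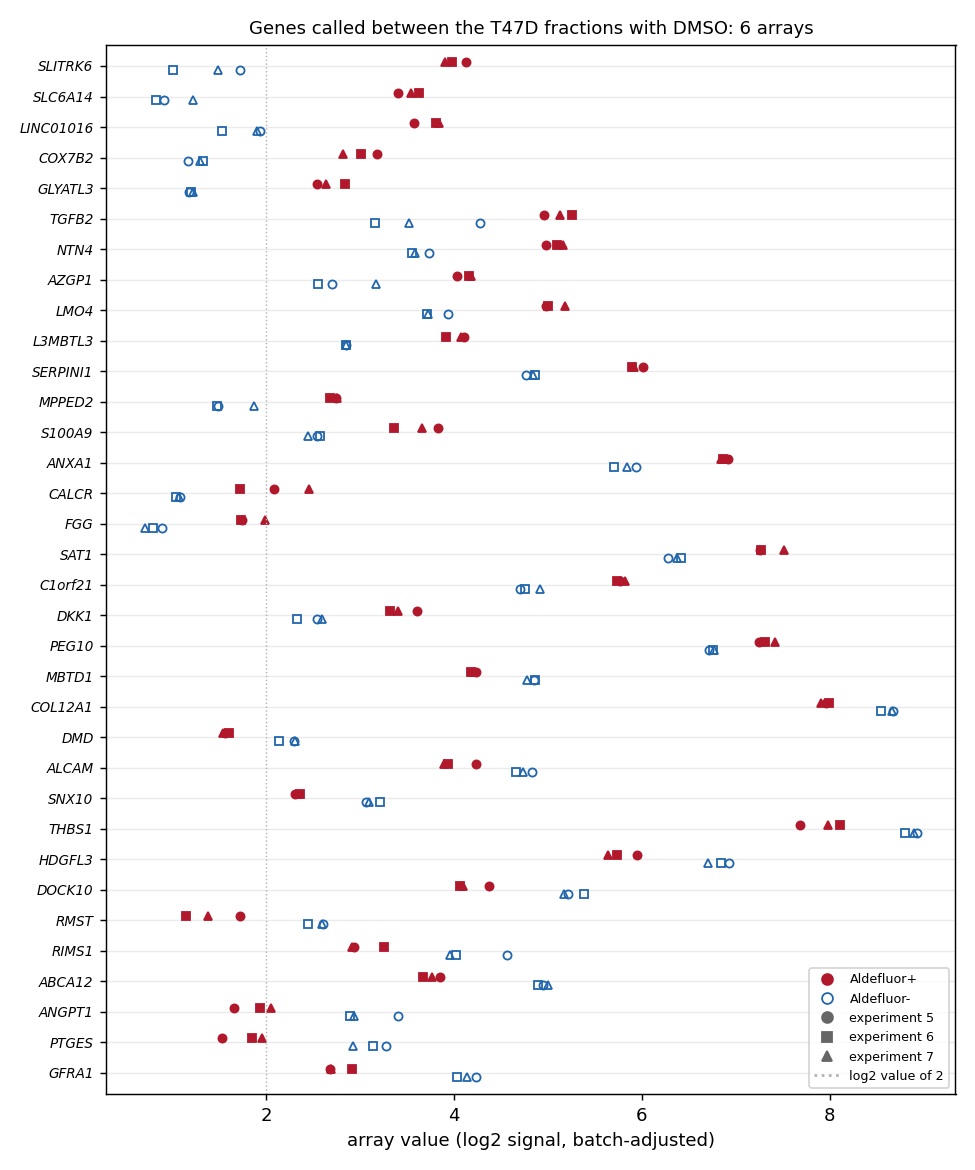
The 34 called genes (rows, ordered by their difference) and their log2 signal on each of the 6 arrays (x axis). Filled symbols are Aldefluor+ and open symbols Aldefluor-, and the symbol's shape gives the experiment (5, 6 or 7). The 20 genes at the top lie to the right in Aldefluor+ cells, the 14 at the bottom lie to the left, and 12 have a group mean left of the dotted line at 2.

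A low signal limits some of these values. In 12 of the 34 a group mean was below 2 on the log2 scale, and in 1, FGG, both were. Over all genes, 48.9% had a mean below 2 on the 6 arrays. At such levels the probe set's background can take a large share of the signal, and a fold is not a ratio of transcript numbers. No background level was estimated for these batch-adjusted values, so low and high signals are described against the value of 2 only. A large difference alone did not earn a call: 83 genes differed by at least 1 and 24 of them were called. RN5S141, named here after its values were seen, averaged 5.06 in Aldefluor+ cells and 3.51 in Aldefluor- cells. Its Aldefluor- values spread from 2.19 to 4.38, and limma gave an adjusted p of 0.315.

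**Figure D2:**
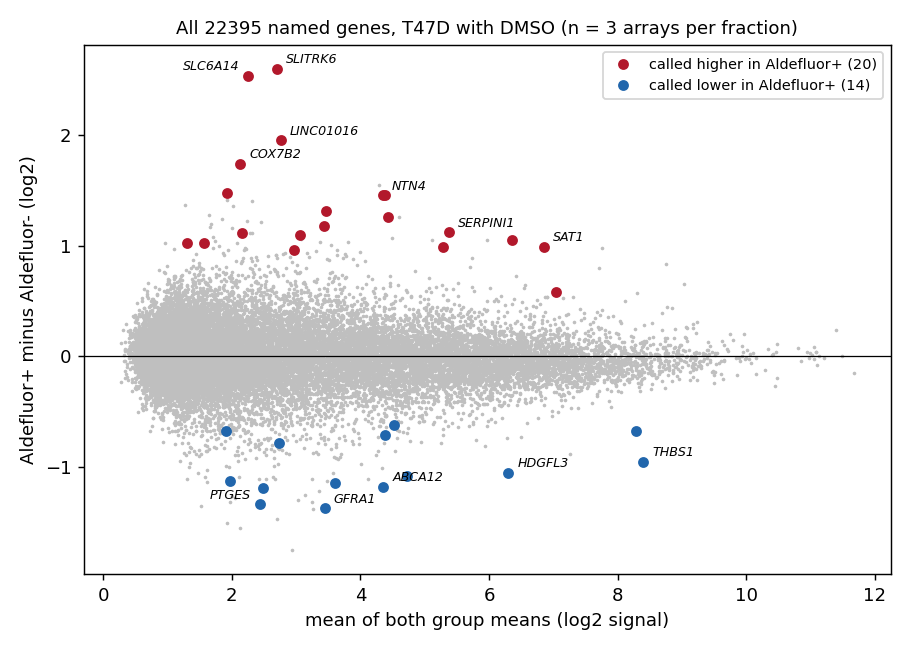
Mean of both fractions (x axis, log2 signal) against the Aldefluor+ minus Aldefluor- difference (y axis, log2) for the 22395 named genes of T47D with DMSO, n = 3 arrays per fraction. Red points are the 20 genes called higher, blue points the 14 called lower and grey points the rest, which spread more widely at low signal than at high signal.

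The calls also depended on single arrays. Leaving out 1 of the 6 arrays left 20, 22 and 16 calls without the Aldefluor+ array of experiment 5, 6 and 7, and 14, 21 and 19 without the matching Aldefluor- array. Leaving out a whole experiment, with the other arrays of T47D from it, left 12, 7 and 5 calls for experiments 5, 6 and 7, of which 11, 7 and 5 were among the 34. There were 11 genes called in each of the 6 single-array omissions: ABCA12, ANXA1, COX7B2, FGG, GLYATL3, HDGFL3, LINC01016, NTN4, SERPINI1, SLC6A14 and SLITRK6. Of these, ANXA1, COX7B2, SLC6A14 and SLITRK6 were also called without any 1 of the 3 experiments. At the other end, DKK1, DMD, GFRA1, MBTD1, PEG10, RIMS1 and SNX10 were called in none of the single-array omissions. The remaining 16 were called in 1 to 5 of them. A fit on the 12 T47D arrays alone called 24 genes, 20 of them among the 34, and 7 of the 24 were lower. Without the SUM159 array of narrow range, which shares the estimate of spread, 44 genes were called, 26 higher and 18 lower, and all 34 were among them. The sign of the difference was the same for all 34 in every alternative that gave a value. There were 19 such settings, and 18 for CALCR, DMD, FGG and RMST, which a filter on low means removed.

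The genes with the largest differences are shown first with the sequence around their start. Promoter windows were taken from RefSeq (GRCh38.p14) and run from 250 bases before to 50 bases after the annotated start, on the strand of the gene. SLITRK6 lies on the minus strand (chr13:85799370-85799669), SLC6A14 on the plus strand (chrX:116436356-116436655) and LINC01016 on the minus strand (chr6:33896858-33897157). They are printed because they hold the 3 largest differences. Each holds a match to the AP-1 motif TGACTCA, which alone of the motifs searched is in capitals and is read here on the opposite strand as TGAGTCA. The SLC6A14 window also holds a match to the GATA site AGATAA, left in lower case. A link of either motif to the differences was not tested.
SLITRK6: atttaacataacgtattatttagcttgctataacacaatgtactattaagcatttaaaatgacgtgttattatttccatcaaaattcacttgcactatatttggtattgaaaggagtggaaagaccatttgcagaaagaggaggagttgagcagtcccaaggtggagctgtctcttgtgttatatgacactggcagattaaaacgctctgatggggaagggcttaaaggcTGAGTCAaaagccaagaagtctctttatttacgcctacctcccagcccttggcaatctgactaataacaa
SLC6A14: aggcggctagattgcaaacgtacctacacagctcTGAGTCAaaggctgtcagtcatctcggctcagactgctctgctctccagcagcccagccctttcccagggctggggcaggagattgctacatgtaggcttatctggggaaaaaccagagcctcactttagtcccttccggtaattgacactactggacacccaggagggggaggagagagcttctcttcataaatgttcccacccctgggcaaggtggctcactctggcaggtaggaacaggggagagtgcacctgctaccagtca
LINC01016: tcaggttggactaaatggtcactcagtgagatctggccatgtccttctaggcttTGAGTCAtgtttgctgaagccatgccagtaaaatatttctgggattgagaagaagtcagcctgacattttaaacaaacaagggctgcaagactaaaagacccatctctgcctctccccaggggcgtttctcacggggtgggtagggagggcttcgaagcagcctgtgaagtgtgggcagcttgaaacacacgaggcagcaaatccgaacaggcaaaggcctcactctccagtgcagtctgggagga
The match starts at base 231 of the SLITRK6 window, base 35 of the SLC6A14 window and base 55 of the LINC01016 window.

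Windows were found for 18 of the 20 higher and 13 of the 14 lower genes. TGACTCA occurred on either strand in 3 of the 18 and in 2 of the 13 (RIMS1 and SNX10), and in 3.91% of the windows of 15307 tested genes. A further 6 motifs were searched in the same way, on both strands and with overlaps allowed. The nuclear receptor core site AGGTCA was in 1 higher and 1 lower window against 11.4% of all, and the forkhead site TGTTTAC in 0 and 1 against 2.76%. The GATA site AGATAA was in 3 and 0 (7.87% of all), the TEAD site GGAATG in 3 and 2 (11.8%), the TATA box TATAAA in 4 and 0 (9.36%) and the GC box GGGCGG in 5 and 7 (57.8%). Median GC content was 55.7% in the higher windows, 62.7% in the lower windows and 62.7% in all. These are letter matches, and with so few windows they are given without a test.

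SLITRK6 and SLC6A14 had the largest differences between the fractions. SLITRK6 is a leucine-rich-repeat transmembrane protein of the SLITRK family, known from neurons and from the inner ear and eye. Its signal was 4.13, 3.98 and 3.90 in Aldefluor+ cells of experiments 5, 6 and 7, against 1.72, 1.00 and 1.49 in Aldefluor- cells. The 3 Aldefluor+ values were close together and the Aldefluor- values lay below 2, so the 6.07-fold difference (log2 2.60 ± 0.31 SE, n = 3, limma adjusted p = 0.00105) has a poorly fixed denominator. Of its 17 measured relatives among SLITRK and other leucine-rich-repeat adhesion genes, SLITRK6 included, it was the 1 that was called, and the list's median was -0.08. The gene lists here and below were chosen with earlier results of these data known. Their counts of called members stand beside 0.152% of all genes and are not read as results about a family. SLITRK5 differed by 0.59 and the adhesion gene AMIGO2 by -0.77, with adjusted p of 0.264 and 0.122 by limma.

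Transporters and enzymes of metabolism made up the next group. SLC6A14 carries neutral and cationic amino acids into cells together with sodium and chloride. It had 3.40, 3.62 and 3.54 in Aldefluor+ cells, against 0.91, 0.82 and 1.22 in Aldefluor- cells (5.8-fold, adjusted p = 1.14e-05 by limma), the smallest p of any gene. Among 34 measured amino acid transporters it was the 1 called, beside 0.152% of all genes, with a list median of 0.04. The leucine transporter SLC7A5 had 9.08, 9.20 and 9.24 in Aldefluor+ cells and 8.20, 8.16 and 8.65 in Aldefluor- cells. These did not overlap, but limma's adjusted p of 0.0655 missed the threshold. SLC7A8 (-0.63) and the glycine transporter SLC6A9 (0.68) were also uncalled.

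COX7B2, a paralogue of a small subunit of cytochrome c oxidase that is known mainly from testis, had 3.18, 3.01 and 2.82 in Aldefluor+ cells, against 1.17, 1.32 and 1.29 in Aldefluor- cells. That is 3.34-fold (log2 1.74 ± 0.17 SE, n = 3, limma adjusted p = 0.000277). The remaining 17 of 18 measured subunits were uncalled, and the median of all was -0.01. GLYATL3, of the glycine N-acyltransferase family, was 2.78-fold higher, with 2.54, 2.84 and 2.63 in Aldefluor+ cells and 1.17, 1.19 and 1.22 in Aldefluor- cells. SAT1, the acetyltransferase that starts polyamine breakdown, lay well above a log2 value of 2. It had 7.26, 7.27 and 7.51 in Aldefluor+ cells, against 6.27, 6.41 and 6.37 in Aldefluor- cells (1.99-fold, limma adjusted p = 0.00494). MPPED2, a metallophosphodiesterase, was 2.17-fold higher at a mean of 2.73 in Aldefluor+ cells and 1.61 in Aldefluor- cells.

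Another pair in this group was lower in Aldefluor+ cells. PTGES, which makes prostaglandin E2 from prostaglandin H2, had 1.52, 1.85 and 1.95 in Aldefluor+ cells, against 3.28, 3.13 and 2.93 in Aldefluor- cells. It was 2.53-fold lower (limma adjusted p = 0.00965), and the call was kept in 3 of 6 single-array omissions. It was the 1 called gene of 20 measured for prostaglandin synthesis and reception, a list with 14 members above 0 and a median of 0.15. By experiment that median was 0.30, 0.03 and 0.004 in experiments 5, 6 and 7. ABCA12, a lipid transporter known for barrier lipids of skin, had 3.85, 3.67 and 3.77 in Aldefluor+ cells, against 4.94, 4.89 and 5.00 in Aldefluor- cells (2.27-fold lower, limma adjusted p = 0.000423). Of 28 measured ABC transporters it was the 1 called. ABCG2, a drug exporter often used as a side-population marker, differed by 0.43 and ABCC5 by -0.71, and neither was called.

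Secreted ligands, inhibitors and matrix proteins formed the largest group. TGFB2, a ligand of the TGF-beta receptors, had 4.95, 5.26 and 5.12 in Aldefluor+ cells, against 4.27, 3.16 and 3.52 in Aldefluor- cells (2.75-fold, limma adjusted p = 0.018). Its Aldefluor- values were the more scattered, and the call was kept in 1 of 6 single-array omissions. Of 25 measured members of the TGF-beta family it was the 1 called, with 13 above 0 and a median of 0.04. In 8 of the 25 the unadjusted limma p was under 0.05, beside 8.96% of all genes. The Aldefluor+ values all lay higher in 8 members and all lower in 2, beside 19.1% of all genes without overlap in either direction. BMP2 (0.74), the co-receptor TGFBR3 (0.60) and TGFB1 (0.48) were the next largest named here, with adjusted p of 0.236, 0.428 and 0.255 by limma. The BMP-binding protein CRIM1, from the list of YAP targets, differed by 0.73 (limma adjusted p = 0.129).

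NTN4, a laminin-related netrin of basement membranes, was among the steadiest differences. It had 4.98, 5.10 and 5.16 in Aldefluor+ cells, against 3.73, 3.56 and 3.58 in Aldefluor- cells (log2 1.46 ± 0.16 SE, n = 3, limma adjusted p = 0.000423). None of the other 32 measured netrins, semaphorins, slits and receptors was called, and the list's median was 0.02. AZGP1, a secreted zinc-binding glycoprotein of apocrine-type cells, had 4.03, 4.16 and 4.18 in Aldefluor+ cells and 2.70, 2.55 and 3.17 in Aldefluor- cells. DKK1, a secreted inhibitor of Wnt co-receptors, had 3.60, 3.32 and 3.40 in Aldefluor+ cells and 2.54, 2.32 and 2.59 in Aldefluor- cells. It was the 1 called of 26 measured Wnt regulators and targets, which had 13 members above 0 and 13 below.

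SERPINI1, the protease inhibitor neuroserpin, separated the fractions with little spread. Its values were 6.01, 5.90 and 5.92 in Aldefluor+ cells, against 4.77, 4.86 and 4.84 in Aldefluor- cells (2.17-fold, limma adjusted p = 0.00373). S100A9, a calcium-binding protein released by myeloid and stressed epithelial cells, was 2.14-fold higher, with 3.83, 3.36 and 3.66 in Aldefluor+ cells and 2.54, 2.57 and 2.45 in Aldefluor- cells. FGG, the fibrinogen gamma chain, differed by 1.02 ± 0.13 (SE, n = 3) between means of 1.82 in Aldefluor+ cells and 0.80 in Aldefluor- cells, both low.

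Other secreted products were lower in Aldefluor+ cells. THBS1, the matricellular protein thrombospondin-1, had 7.68, 8.11 and 7.99 in Aldefluor+ cells, against 8.93, 8.81 and 8.90 in Aldefluor- cells (1.94-fold lower, limma adjusted p = 0.00889). COL12A1, a fibril-associated collagen, had 7.96, 8.00 and 7.91 in Aldefluor+ cells, against 8.67, 8.55 and 8.66 in Aldefluor- cells (1.6-fold lower, limma adjusted p = 0.00801). Both lay far above a log2 value of 2 in both fractions. ANGPT1, the ligand that activates the TEK receptor, was 2.29-fold lower, with 1.66, 1.93 and 2.05 in Aldefluor+ cells and 3.40, 2.89 and 2.93 in Aldefluor- cells. It was the 1 called of 13 measured angiopoietins, VEGF ligands and receptors, in which VEGFC differed by 0.52 (limma adjusted p = 0.469).

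Receptors and adhesion molecules were called in both directions. CALCR, the calcitonin receptor, had 2.08, 1.72 and 2.46 in Aldefluor+ cells, against 1.08, 1.04 and 1.06 in Aldefluor- cells. Its adjusted p of 0.0477 by limma was the closest to the threshold, and the call was kept in 1 of 6 single-array omissions. GFRA1, which binds glial-derived neurotrophic factor and signals through RET, had 2.68, 2.91 and 2.69 in Aldefluor+ cells, against 4.23, 4.03 and 4.14 in Aldefluor- cells (2.59-fold lower, limma adjusted p = 0.0294). This was the largest lower difference among called genes, and it was called in none of the single-array omissions. RET itself had means of 1.12 in Aldefluor+ cells and 1.45 in Aldefluor- cells, below 2 in both. ALCAM, the adhesion molecule CD166, was 1.64-fold lower, and DMD, the dystrophin that ties the cytoskeleton to the membrane, 1.6-fold lower at means of 1.57 in Aldefluor+ cells and 2.24 in Aldefluor- cells.

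Inside the cell, ANXA1, a calcium-dependent phospholipid-binding annexin, was 2.07-fold higher. It had 6.92, 6.87 and 6.84 in Aldefluor+ cells, against 5.94, 5.70 and 5.85 in Aldefluor- cells (limma adjusted p = 0.000287), and was the 1 called gene of the 13 mesenchymal markers. DOCK10 was 2.11-fold lower, with 4.37, 4.07 and 4.09 in Aldefluor+ cells and 5.21, 5.39 and 5.18 in Aldefluor- cells. RIMS1, a scaffold of the presynaptic active zone, had 2.93, 3.25 and 2.91 in Aldefluor+ cells, against 4.56, 4.02 and 3.96 in Aldefluor- cells. SNX10, an endosomal sorting nexin, was 1.72-fold lower, with a mean of 2.34 in Aldefluor+ cells and 3.12 in Aldefluor- cells.

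Nuclear proteins included a pair of MBT-domain proteins, which bind methylated lysines of histones, in opposite directions. L3MBTL3 had 4.10, 3.91 and 4.07 in Aldefluor+ cells, against 2.85 on each of the 3 Aldefluor- arrays (2.27-fold, limma adjusted p = 0.00979). MBTD1 had 4.24, 4.18 and 4.20 in Aldefluor+ cells, against 4.85, 4.86 and 4.78 in Aldefluor- cells (1.54-fold lower, limma adjusted p = 0.0123). LMO4, a LIM-only cofactor of transcription factors with a known role in mammary epithelium, had 4.97, 5.00 and 5.19 in Aldefluor+ cells, against 3.94, 3.71 and 3.73 in Aldefluor- cells. It was the 1 called of 10 measured LIM-only and LIM-binding cofactors. HDGFL3, of the hepatoma-derived growth factor family, was 2.07-fold lower, with 5.95, 5.73 and 5.64 in Aldefluor+ cells and 6.92, 6.84 and 6.71 in Aldefluor- cells. PEG10, an imprinted gene of retrotransposon origin, had the smallest called difference, 0.58 ± 0.10 (SE, n = 3).

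The called set also held 2 long noncoding RNAs and an uncharacterised gene. LINC01016 had 3.58, 3.81 and 3.84 in Aldefluor+ cells, against 1.93, 1.53 and 1.89 in Aldefluor- cells (3.88-fold, limma adjusted p = 0.00181). RMST, known from neuronal differentiation, had 1.72, 1.14 and 1.38 in Aldefluor+ cells, against 2.60, 2.44 and 2.60 in Aldefluor- cells. C1orf21 had 5.77, 5.73 and 5.82 in Aldefluor+ cells, against 4.70, 4.75 and 4.91 in Aldefluor- cells (1.99-fold).

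Just past the threshold lay 10 genes with limma adjusted p between 0.0525 and 0.0655, in which the fractions did not overlap. SAA1, an acute-phase serum amyloid, had 4.83, 5.29 and 5.55 in Aldefluor+ cells, against 3.92, 4.27 and 3.69 in Aldefluor- cells. It has a near-identical copy, SAA2, so the signal may be shared. MYB, a transcription factor tied to luminal identity, had 3.83, 3.94 and 3.63 in Aldefluor+ cells, against 4.83, 4.64 and 4.60 in Aldefluor- cells. STC1, a secreted stanniocalcin, differed by -1.05, the zinc-finger genes ZC3H6 and ZNF827 by -0.89 and -0.54, and LRRC31 by 0.96. GLT8D2 and RN5S519 differed by 0.75 each and the retinol-binding protein RBP4 by 0.61. SLC7A5, given above, was the tenth.

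The aldehyde dehydrogenases bear most directly on the sort. Of 19 listed, 17 were measured, 0 were called against 0.152% of all genes, and their median difference was 0.0043. ALDH1A1, the retinaldehyde-oxidising enzyme most often tied to the assay, had 3.21, 3.27 and 3.36 in Aldefluor+ cells, against 3.18, 3.28 and 2.75 in Aldefluor- cells. The groups overlapped, and the difference of 0.21 had a 95% interval of -0.15 to 0.57, which leaves room for a difference of either sign within those bounds. ALDH1A3 had 2.43, 2.01 and 1.78 in Aldefluor+ cells, against 1.71, 2.28 and 2.02 in Aldefluor- cells. Its difference of 0.07 had an interval of -0.36 to 0.50 and changed sign without experiment 5, to -0.25. ALDH1A2 lay below a log2 value of 2, at means of 1.04 in Aldefluor+ cells and 0.95 in Aldefluor- cells.

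The largest differences in the family ran both ways. ALDH2, the mitochondrial enzyme that clears acetaldehyde, had 1.86, 1.54 and 2.18 in Aldefluor+ cells, against 2.30, 2.60 and 2.69 in Aldefluor- cells. The groups did not overlap and the unadjusted p was 0.0228, but the limma adjusted p was 0.45. ALDH3B1 had 2.70, 3.12 and 3.14 in Aldefluor+ cells, against 2.53, 2.47 and 2.60 in Aldefluor- cells (limma adjusted p = 0.722). By unadjusted p under 0.05, 1 of the 17 passed, beside 8.96% of all genes. Among 20 measured genes of retinoid metabolism and response 0 were called, with 15 above 0 and a median of 0.08. Of these 20, 11 had a mean below 2 on the 6 arrays. RBP4, named above as just past the threshold, was among them, at 1.49 in Aldefluor+ cells and 0.88 in Aldefluor- cells.

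**Figure D3:**
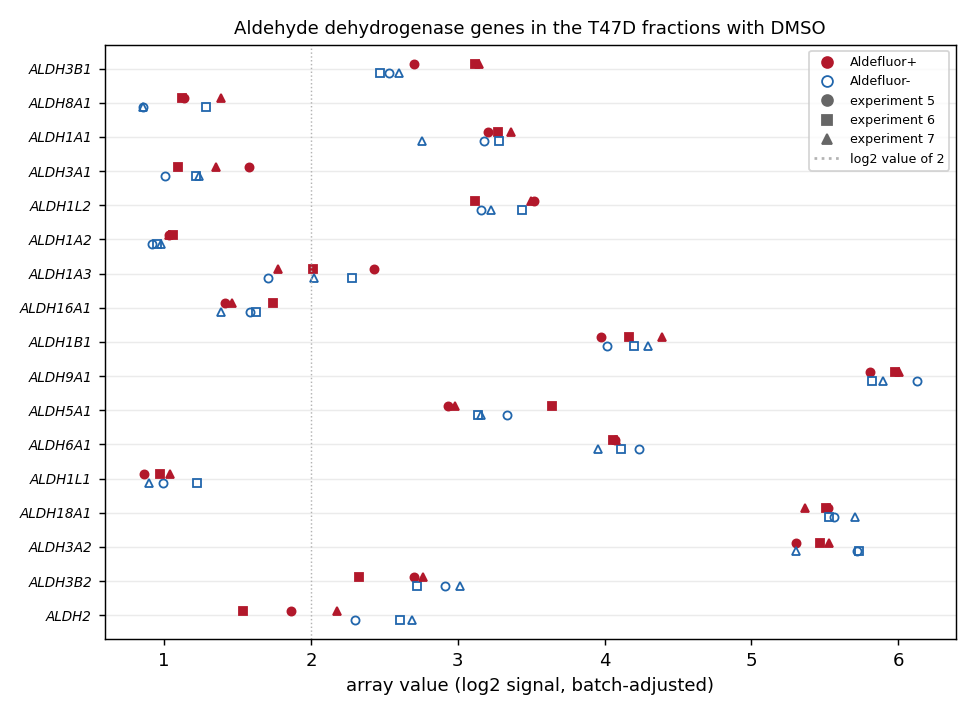
The 17 measured aldehyde dehydrogenase genes (rows, ordered by difference) and their log2 signal on each of the 6 T47D DMSO arrays (x axis). Filled symbols are Aldefluor+ and open symbols Aldefluor-, with shapes for the experiments. ALDH1A1 and ALDH1A3 overlap between the fractions, and ALDH2 at the bottom lies lower in Aldefluor+ cells without passing the test.

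Lists of cell state and cell cycle genes showed small differences, none of which was a call. Of 30 measured genes of G2/M and mitosis, 23 were above 0 with a median of 0.15, and in 15 the Aldefluor+ values all lay higher, beside 19.1% of all genes without overlap in either direction. UBE2C, an ubiquitin-conjugating enzyme of mitotic exit, had 5.55, 5.65 and 5.69 in Aldefluor+ cells, against 5.16, 5.19 and 5.25 in Aldefluor- cells (limma adjusted p = 0.264). The proliferation antigen MKI67 differed by 0.36, the cytokinesis protein ANLN by 0.39 and the kinase TTK by 0.37. The list's median by experiment was 0.20, 0.20 and 0.04 in experiments 5, 6 and 7, and 0.09 without experiment 6. Replication-dependent histones had 9 of 11 above 0 with a median of 0.25, and genes of G1/S and DNA replication 15 of 29 with a median of 0.02.

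Basal and myoepithelial genes had 7 of 10 members above 0 and a median of 0.35, with 0 called. KRT16, a stress-associated keratin, had 1.65, 2.38 and 2.75 in Aldefluor+ cells, against 1.27, 1.14 and 1.25 in Aldefluor- cells, and CDH3, P-cadherin, differed by 0.67 (limma adjusted p = 0.227 and 0.436). KRT15 (0.48) and EGFR (0.42), the epidermal growth factor receptor, were also uncalled. The list's median by experiment was 0.36, 0.31 and 0.32 in experiments 5, 6 and 7, and 0.20 without the Aldefluor- array of experiment 5. Alveolar and secretory luminal genes had 10 of 12 above 0 and a median of 0.14, with the protease inhibitor SLPI at 1.12 (limma adjusted p = 0.129). Luminal and oestrogen-response genes had 6 of 22 above 0 and a median of -0.06, which was 0.01 without experiment 7.

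Immediate early genes had 18 of 23 above 0 and a median of 0.21, with 0 called. In experiments 5, 6 and 7 the list's median was 0.15, 0.21 and 0.17. FOSB, a subunit of AP-1, had 4.52, 3.71 and 4.46 in Aldefluor+ cells, against 3.39, 3.47 and 3.10 in Aldefluor- cells (limma adjusted p = 0.328). FOS differed by 0.55 and JUNB by 0.43. Among breast stem cell markers 15 of 19 were above 0 with a median of 0.11. By experiment that median was 0.25, 0.01 and 0.01 in experiments 5, 6 and 7. The pluripotency factor SOX2 was lower, at 1.79, 1.62 and 1.82 in Aldefluor+ cells against 2.89, 2.36 and 2.77 in Aldefluor- cells (limma adjusted p = 0.139). PROCR, a surface receptor used to mark mammary stem cells in mice, differed by 0.51 with overlapping groups.

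Lists of stress pathways lay close to the all-gene median. Genes of ER chaperones and the unfolded protein response had 8 of 20 above 0 and a median of -0.05, and in 7 the Aldefluor+ values all lay lower, beside 19.1% of all genes without overlap in either direction. HERPUD1, which serves the degradation of ER proteins, differed by -0.44 (limma adjusted p = 0.339). Hypoxia genes had 5 of 15 above 0, with a median of -0.08, and amino acid response genes driven by ATF4 14 of 25, with a median of 0.02. Interferon-stimulated genes had 13 of 23 above 0 and a median of 0.03. NPR3, the clearance receptor of natriuretic peptides, had 4.85, 4.94 and 5.31 in Aldefluor+ cells, against 4.34, 3.84 and 3.71 in Aldefluor- cells. It missed the threshold at a limma adjusted p of 0.0848, and so did EREG, which encodes the EGFR ligand epiregulin, with a difference of -0.88 and an adjusted p of 0.0738.

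**Figure D4:**
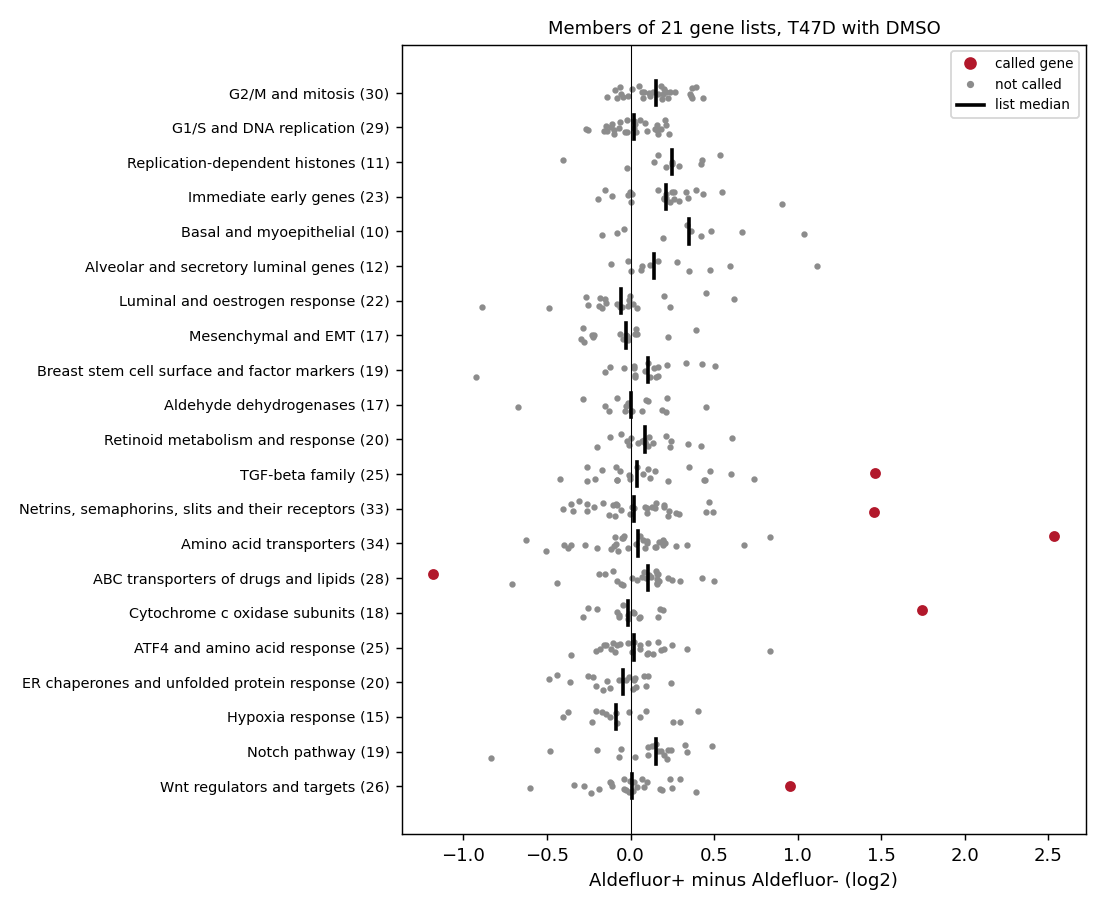
Aldefluor+ minus Aldefluor- difference (x axis, log2) of each measured member of 21 gene lists (rows, number of members in brackets) in T47D with DMSO. Red points are called genes, grey points are not called and black bars are list medians. Lists with a called gene hold 1 red point each, the member of largest absolute difference, and the other lists hold none. Medians lie between -0.08 and 0.35.

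Markers of other cell types stayed low in both fractions. Of the measured markers, 6 of 8 for fibroblasts, 8 of 9 for endothelium, 8 of 9 for leukocytes and 6 of 7 for erythroid cells had a mean below 2, and 0 were called. The summed linear signal of the leukocyte markers ranged from 34 to 35.5 in Aldefluor+ cells and from 25.6 to 33 in Aldefluor- cells, and that of the fibroblast markers from 22.9 to 25.5 in Aldefluor+ cells and from 22.9 to 24.9 in Aldefluor- cells. For endothelial markers it was 27.3 to 33.9 in Aldefluor+ cells and 26.2 to 28.5 in Aldefluor- cells, and for erythroid markers 16.2 to 20.9 in Aldefluor+ cells and 17 to 18.6 in Aldefluor- cells. Their part in the called differences was not tested.

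The samples themselves differed in RNA yield. Aldefluor+ samples gave 19.1, 18.3 and 20.4 pg of RNA per collected cell in experiments 5, 6 and 7, against 10.9, 13.5 and 17.0 pg in Aldefluor- samples. The mean was 19.3 ± 1.05 pg in Aldefluor+ samples and 13.8 ± 3.03 pg in Aldefluor- samples (SD, n = 3 experiments each). The ratio was above 1 in 3 of 3 experiments (mean log2 ratio 0.51 ± 0.27 SD, or 1.42-fold), and flipping signs over the 3 pairs in an exact permutation test (two-sided) gave p = 0.25, the smallest possible here. Its part in the called differences was not tested.

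The same fractions under ID8 came from other arrays of the same 3 experiments and measure each called gene again. The DMSO and ID8 comparisons came from the same fit, which shares the error estimate of each gene and the experiment blocks. A gene with a small error is therefore favoured for a call under both treatments, so the calls they share are not independent. With ID8, limma called 82 genes (0.366% of all). Of the 34 genes called under DMSO, 32 had the same sign with ID8 and 19 were also called, 13 higher and 6 lower, which is 55.9% of the 34 and 23.2% of the 82 (85 were called with ID8 without the SUM159 array of narrow range, and 19 were still shared). SLC6A14 differed by 2.54 with DMSO and 2.62 with ID8, NTN4 by 1.46 and 1.61, SERPINI1 by 1.12 and 1.09, ABCA12 by -1.18 and -1.42 and GFRA1 by -1.37 and -1.75. The 34 were chosen by their DMSO values, so the 21 with a smaller absolute difference under ID8 are not read as an effect of ID8.

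The test of the difference itself, DMSO minus ID8, called 0 of 22395 genes by limma (smallest adjusted p = 0.504), with 1328 (5.93%) at an unadjusted p under 0.05. Of the 34, 12 had such a p, and 9 differed by less than 0.5 under ID8. The DMSO difference that chose the 34 is a term of this test, so neither count is read as an effect of ID8. SLITRK6 differed between the fractions by 2.60 with DMSO and 0.72 with ID8, and the difference of 1.88 had a 95% interval of 0.95 to 2.82. For FGG the values were 1.02 with DMSO and -0.01 with ID8, for PTGES -1.34 and -0.15, for COL12A1 -0.67 and -0.09, and for MBTD1 -0.62 and 0.13. CALCR went the other way, with 1.03 under DMSO and 1.94 under ID8. None of these passed the adjustment over all genes.

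**Figure D5:**
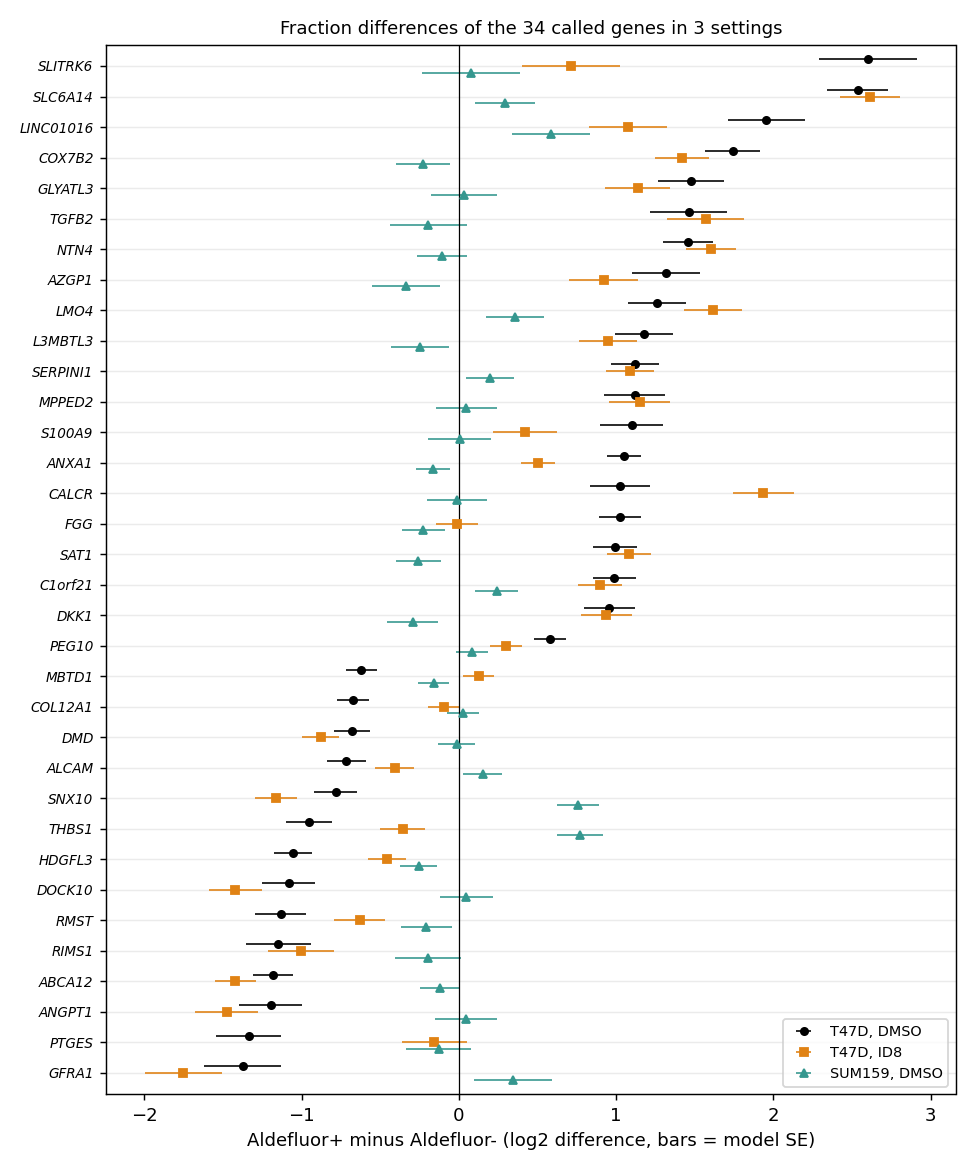
Aldefluor+ minus Aldefluor- difference (x axis, log2, bars are the model SE) of the 34 genes called in T47D with DMSO (rows) in T47D with DMSO, T47D with ID8 and SUM159 with DMSO, n = 3 arrays per fraction in each. In 32 genes the T47D values lie on the same side of 0 under both treatments, and the SUM159 values scatter around 0.

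In SUM159 under DMSO the same sort gave 5 called genes (0.0223%), none of which was among the 34. Of the 34, 17 had the same sign in SUM159, and their median absolute difference was 1.12 in T47D, where they were chosen, and 0.195 in SUM159. The difference between the lines was tested for every gene, and limma called 15 (0.067%), of which 10 were among the 34. The T47D difference that chose the 34 is a term of this test, so such an overlap is favoured in advance. ALDH1A1 led the 15: its fraction difference was 0.21 in T47D and 2.80 in SUM159 (T47D minus SUM159 -2.59, 95% interval -3.11 to -2.08, limma adjusted p = 0.000241). ANKRD1, a YAP target, differed by 0.14 in T47D and 2.07 in SUM159. THBS1 and SNX10 differed in opposite directions, by -0.95 and -0.78 in T47D and by 0.77 and 0.76 in SUM159, with limma adjusted p of 0.00214 for both. Without the SUM159 array of narrow range, which leaves 2 Aldefluor+ arrays there, 4 genes were called in SUM159 (3 of the 5), and 9 of the 15 between the lines. ABCA12, LRRC31, SAT1, SDC2, SLITRK6 and STK40 then missed the threshold, at limma adjusted p of 0.0993 to 0.118. The SUM159 difference was then 2.89 for ALDH1A1, 2.19 for ANKRD1, 0.86 for THBS1 and 0.69 for SNX10, all 4 still called between the lines, and 17 of the 34 still had the same sign. Between 7 and 11 genes were called between the lines without single T47D DMSO arrays.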

How the data were processed

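RNA of sorted T47D and SUM159 cells was amplified and hybridised to Affymetrix Human Gene ST arrays, per the labels' protocols. The authors deposited log2 values computed by RMA (robust multiarray averaging) and adjusted with ComBat for experiment and processing batches before running limma, per the series' design text and the submitters' processing notes. The sources used here give no versions, no assignment of arrays to the adjusted batches and no protected covariates, and the adjustment can compress differences.

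Of 53617 probe sets, 23871 had 1 gene symbol in the platform annotation, 1842 several and 27904 none, and only the first kind was named. RefSeq's gene table (GRCh38.p14) gave 22569 of them a current symbol through the gene number. The brightest probe set was kept for the 632 genes with more than 1, leaving 22395 genes.

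The main test was limma 3.58.1 (lmFit, eBayes) in R 4.3.3 on the 24 arrays together, modelling 8 groups and blocking on experiment within a line (12 residual degrees of freedom). Genes were called at a Benjamini-Hochberg adjusted p under 0.05 over all 22395. SE and 95% intervals come from this model. The labels number separate experiments, which pairs the arrays. Deviations from group means correlated at -0.307, -0.341 and -0.355 between the fractions of experiments 5, 6 and 7, as removal of experiment means entails, so they are no separate check of the pairing. The fit was tested on simulated data. RNA per cell came from amounts and cell numbers in the labels.

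Named genes were all called genes, the 10 uncalled genes of smallest p, every aldehyde dehydrogenase, up to 4 members of largest difference in each of 46 gene lists, and genes called between lines. The members, lists and tests were chosen with earlier results of these data known. Lists are described by counts and medians, without a test. The calcitonin and PTH family, natriuretic peptide, progesterone, androgen, GDNF, synapse, Notch, YAP, NRF2, cytokine, cholesterol, fatty acid, EGF, mesenchymal and xenobiotic lists were also counted. Columns of all 24 arrays were matched to samples by title.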

Additional observations from a re-analysis of the deposited data

Results flagged for a closer look

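The difference between Aldefluor+ and Aldefluor- cells under DMSO itself differed between T47D and SUM159 for 15 genes by limma's test of that difference, with the experiment as a block (Benjamini-Hochberg adjusted p under 0.05 over 22395 genes). Higher in the T47D than in the SUM159 comparison were SLITRK6 (T47D minus SUM159 2.52 on the log2 scale), SLC6A14 (2.24), COX7B2 (1.97), LRRC31 (1.69), NTN4 (1.57), FGG (1.25), SAT1 (1.25), ANXA1 (1.21) and STK40 (0.95). Lower were ALDH1A1 (-2.59), ANKRD1 (-1.93), THBS1 (-1.73), SNX10 (-1.54), ABCA12 (-1.06) and SDC2 (-0.98).

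LRRC31, SDC2 and STK40 were called in neither line alone. LRRC31, a leucine-rich-repeat protein, differed by 0.96 in T47D and -0.73 in SUM159 (limma adjusted p = 0.019 for the difference between lines). SDC2, the heparan sulphate proteoglycan syndecan-2, differed by -0.49 in T47D and 0.49 in SUM159, and STK40, a pseudokinase, by 0.50 in T47D and -0.44 in SUM159, with limma adjusted p of 0.0425 and 0.0334. Without the SUM159 array of narrow range (Aldefluor+, DMSO, experiment 4), ABCA12, LRRC31, SAT1, SDC2, SLITRK6 and STK40 were not called between the lines, and the other 9 were.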

How the results depend on the processing

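Without the replicate block, limma called 242 genes, all 34 of the main calls among them, but that fit counts degrees of freedom that the authors' adjustment had used. It called 4 genes for DMSO minus ID8, 115 for T47D minus SUM159 and 32 distinct list members, where the fit with the block called 0, 15 and 18. Limited to the 6 arrays, the fit called 2 genes, SLC6A14 and SLITRK6, which are also its 2 list members. Limited to genes with a T47D mean of at least 2 it called 75 (30 of the 34), and 23 between the lines. A variance prior with trend and robust estimation called 66 (32 of the 34). Without the narrow SUM159 array 44 genes were called (all 34 among them), with 22 list members, and 9 differed between the lines. The 12 T47D arrays alone gave 24 calls (20 of the 34) and 7 lower genes, and all probe sets, named or not, 29 (21 of the 34). Leaving out T47D DMSO arrays or T47D experiments gave 5 to 22 calls, 6 to 11 between the lines and 4 to 11 list members. ALDH1A3 changed sign, to -0.25 without experiment 5, -0.17 without its Aldefluor+ array and -0.12 without its Aldefluor- array, and reached 0.28 without the Aldefluor+ array of experiment 7. Of 1881 alternative values of 100 named genes, 1566 kept sign and side of the threshold, 248 lost the call, 64 gained it and 3 changed sign. Leaving out 1 experiment, an alternative added after seeing the data, gave mean log2 ratios of RNA per cell of 0.35 to 0.62.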

Other observations

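Further signalling lists held few or no called genes in T47D Aldefluor+ cells with DMSO, beside 0.152% of all genes. Of 19 measured Notch pathway genes 0 were called, with 14 above 0 and a median log2 difference of 0.15. By experiment that median was 0.34, 0.06 and -0.03 in experiments 5, 6 and 7. HEY2, a transcriptional repressor that Notch induces, was at 1.64, 2.35 and 2.04 in Aldefluor+ cells of experiments 5, 6 and 7, against 2.87, 2.93 and 2.74 in Aldefluor- cells, and missed the threshold (limma adjusted p = 0.236). Among calcitonin and PTH family genes CALCR was the 1 called of 12, while the calcitonin gene CALCA differed by -0.86 between means of 0.98 in Aldefluor+ cells and 1.84 in Aldefluor- cells. CALCR was also the 1 called of 14 progesterone receptor targets (median 0.10, PER1 at -0.48). EGF family genes (0 of 13, median 0.08), natriuretic peptide genes (0 of 7, median -0.03) and inflammatory cytokines (0 of 18, median 0.09) had no call. Androgen and apocrine markers had AZGP1 higher and ALCAM lower of 10 measured, with a median of -0.06. The GDNF list had GFRA1 as the 1 called of 10 (median 0.08), the synapse list RIMS1 of 18 (median -0.02), with SYT2 at -0.67 and STX1A at 0.52.

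Of 23 measured YAP and TAZ targets TGFB2 was the 1 called, with 16 above 0 and a median of 0.11, and FJX1 differed by 0.61 with overlapping groups. Of 22 genes of xenobiotic metabolism, sulphation and glycine conjugation GLYATL3 was the 1 called, with 14 above 0 and a median of 0.12. The dioxin-inducible enzymes CYP1A1 and CYP1B1 differed by 0.97 and 0.88, without overlap of the fractions. CYP1B1 had 4.53, 4.16 and 4.28 in Aldefluor+ cells, against 3.43, 3.44 and 3.46 in Aldefluor- cells, and limma gave adjusted p of 0.236 for CYP1A1 and 0.339 for CYP1B1. Targets of NRF2 (0 of 17, median -0.01), cholesterol genes (0 of 18, median 0.01), fatty acid genes (0 of 18, median 0.08) and mesenchymal genes (0 of 17, median -0.03) had no call.

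When all probe sets were tested, limma called 8 that have no single gene symbol in the annotation. They differed by between -1.84 and 2.03 on the log2 scale, 3 higher and 5 lower in Aldefluor+ cells, with adjusted p between 9.95e-05 and 0.0308. That setting called 29 probe sets in all, and 21 of the 34 named genes. TGFB2, GFRA1, DKK1, AZGP1, ALCAM, ANGPT1, CALCR, DMD, MPPED2, PEG10, RIMS1, S100A9 and SNX10 missed its threshold.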
